A study of Homo sapiens with 6 samples.

Results

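The translation initiation factors described here are the 56 of 20042 genes in the count table that code for protein and whose symbol begins with EIF and a digit from 1 to 6, a rule that uses no measured value. They comprise 10 genes of eIF2 and its kinases, 5 genes of eIF2B, 14 genes of eIF3, 16 genes of eIF4 and its binding proteins, and 11 other factors. RNA sequencing counted their reads in cultures of MDA-MB-231, a long-established line of human breast cancer cells. In 3 cultures the cells were transfected with a control siRNA (siCTRL), labelled WT, and in 3 they were transfected with siRNA-1 against ERBBride, labelled ERBBride knock down. All cultures are of the same line, and the labels give neither the dose nor the time after transfection. In such bulk RNA, fewer cells of a kind and less RNA per cell cannot be told apart. The labels call the cultures of a group biological replicates without saying how they were separated, so p-values measure only the spread between these samples, which may be technical.

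Most proteins are made by cap-dependent initiation. The eIF4F complex (the cap-binding protein eIF4E, the scaffold eIF4G and the helicase eIF4A) recruits the small ribosomal subunit to the mRNA, eIF3 bridges that subunit to eIF4G, and eIF2 brings the initiator tRNA in a complex with GTP. The 4E-binding proteins hold eIF4E away from eIF4G until mTOR phosphorylates them, and the eIF2 kinases phosphorylate the alpha subunit of eIF2 under stress, which blocks its recycling by eIF2B. Both switches act on proteins, and the counts measured here give transcript levels only.

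Library totals ranged from 12813706 to 15014434 counts, and 3 counts corresponded to at most 0.233 CPM in any library (CPM are counts scaled to a common library total, here with the TMM factors of edgeR), a limit that covers counting error only. The targeted RNA has no entry named ERBBride in the table, so its knockdown was not analysed here. All 8 marker genes listed for a mesenchymal breast cancer line had counts, with a summed level of 7426 to 7719 CPM in siCTRL and 4331 to 4475 CPM in siRNA-1 libraries. Of 6 luminal genes PGR was at 0, FOXA1 had 3 counts over all libraries, ESR1 6, CDH1 113, GATA3 654 and EPCAM 890, and the summed level was 27.8 to 32.0 CPM in siCTRL and 9.80 to 10.9 CPM in siRNA-1. The blood cell genes CD14, LYZ and PTPRC had 1050, 56 and 37 counts over all libraries, and were summed at 15.9 to 20.5 CPM in siCTRL and 7.61 to 8.87 CPM in siRNA-1. Of 4 endothelial genes 3 had counts (CDH5 was at 0), summed at 15.6 to 17.6 CPM in siCTRL and 8.24 to 10.8 CPM in siRNA-1. The part of these lists in the results below was not tested. Library siCTRL 2 lay apart from the other controls: over the 53 tested initiation factor genes its log2 difference from their mean had an SD of 0.17, against 0.086 between siCTRL 1 and siCTRL 3, and its median was -0.055. Over all genes tested these SDs were 0.30 and 0.23, and the median was 0.003.

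Of the 56 genes, 53 had enough counts to be tested. EIF4E1B and EIF1AY were listed at 0 in every library and EIF4EBP3 had 5 counts over all libraries. A gene is said to have changed where its adjusted p was under 0.05 (edgeR quasi-likelihood test, Benjamini-Hochberg over all 12440 genes tested). By this rule 20 initiation factor genes rose and 13 fell in siRNA-1 cells, and 20 did not pass. The share that changed was 62.3%, beside 62.5% of all genes tested, and so was near the background. The share that rose was 37.7% beside 31.5% of all genes, and the share that fell was 24.5% beside 31%. The groups did not overlap at 37 of the 53 genes, which is 69.8% beside 67.6% of all genes. Most differences were small, with a median absolute log2 fold change of 0.27 for these genes and 0.35 for all genes. Among changes of at least 1.5-fold, 3 of the 53 initiation factor genes rose (EIF4EBP2, EIF2B5 and EIF5A), where 9.4% of all genes did. A further 6 of the 53 fell (EIF4E3, EIF6, EIF5A2, EIF4EBP1, EIF1 and EIF2D), where 16.9% of all genes did. Both shares were smaller than those of all genes.

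**Figure D1:**
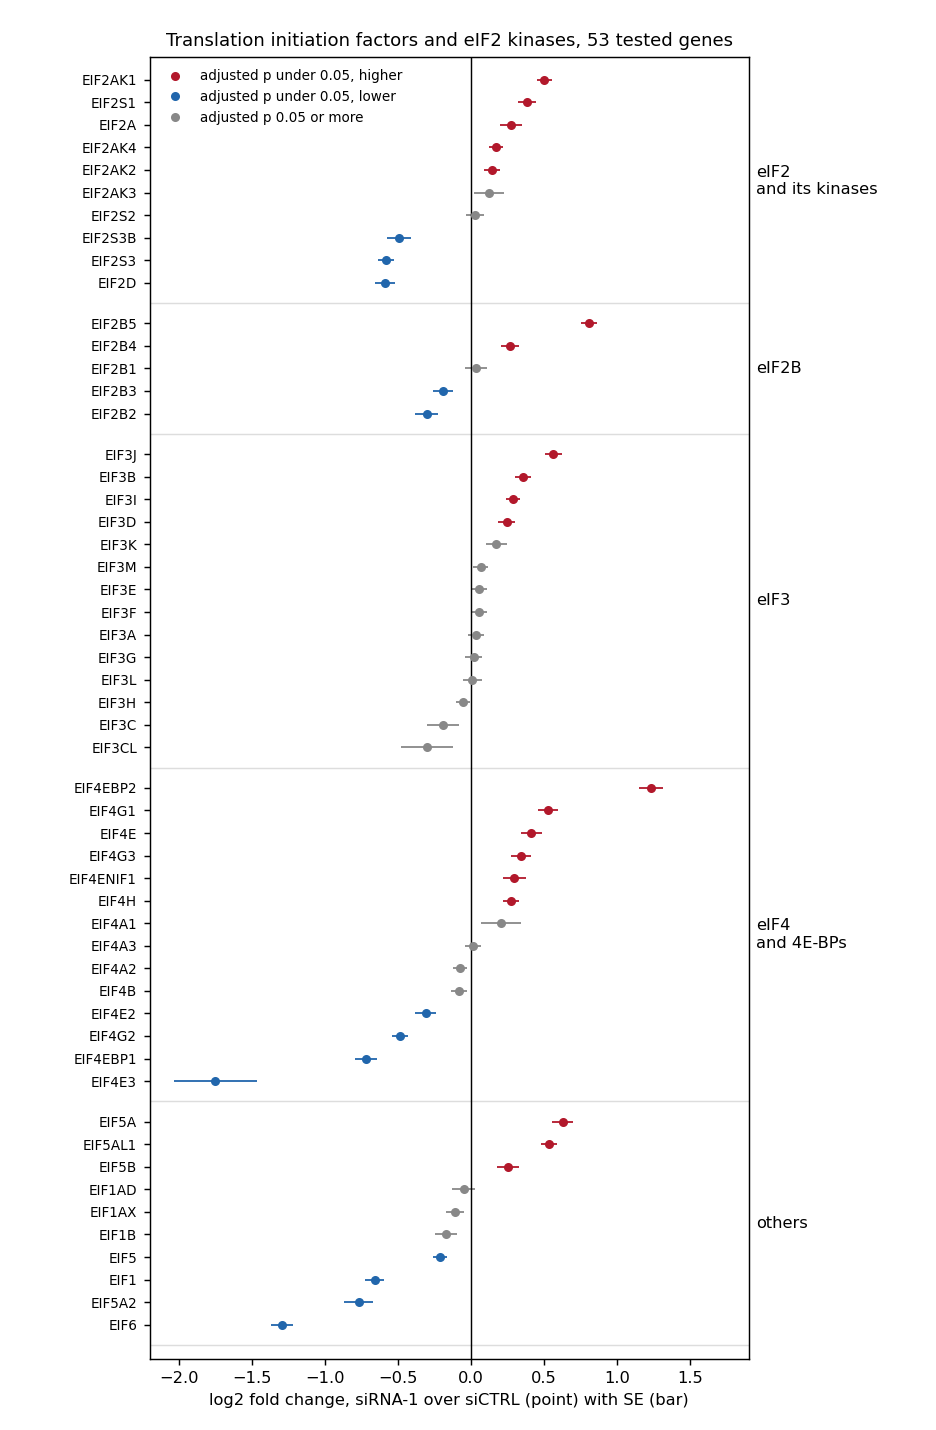
Log2 fold change of siRNA-1 over siCTRL (horizontal axis) for the 53 tested genes, by complex and in descending order, where points are edgeR estimates, bars are the SE and colour gives the call at an adjusted p of 0.05. The largest rise is that of EIF4EBP2 (1.23), the lowest value is that of EIF4E3 (-1.75), and no eIF3 gene is called lower.

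The genes of eIF2 itself moved apart from one another. EIF2S1, which encodes the alpha subunit that the kinases phosphorylate, was at 185, 162 and 188 CPM in siCTRL 1 to 3 and at 237, 231 and 230 CPM in siRNA-1 1 to 3. All siRNA-1 libraries lay above all controls, and EIF2S1 rose 1.30-fold (log2 fold change 0.38, SE 0.063, adjusted p = 0.000216, edgeR). EIF2S3, which encodes the gamma subunit that binds GTP and the initiator tRNA, was at 326, 331 and 316 CPM in siCTRL and at 229, 210 and 210 CPM in siRNA-1. The groups were again apart but in the other direction, and EIF2S3 fell by 0.58 on the log2 scale (SE 0.055, adjusted p = 2.7e-06). EIF2S2, the beta subunit gene, had 238 ± 15.7 CPM in siCTRL and 242 ± 10.1 CPM in siRNA-1 (mean ± SD, n = 3 in each group here and below) and did not pass (adjusted p = 0.733, edgeR). EIF2S3B, an autosomal copy of the gamma subunit gene, fell 1.41-fold (adjusted p = 0.000266). Its reads and those of EIF2S3 come from similar sequences and are assigned with some uncertainty. Per kilobase of exon, the level of EIF2S1 was 0.350, 0.301 and 0.366 of that of EIF2S3 in the controls and 0.635, 0.676 and 0.674 of it in siRNA-1 libraries. The mean ratio was thus 0.339 in siCTRL and 0.662 in siRNA-1, with no overlap. An exact permutation test on the log ratio gave p = 0.1 (two-sided), the smallest that 3 samples against 3 allow. Both genes already lay apart in opposite directions, so the separation of their ratio was fixed by them and is no separate evidence.

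EIF2A and EIF2D encode proteins that can deliver initiator or other tRNA to the ribosome without eIF2. EIF2D was at 79.4, 74.4 and 80.4 CPM in siCTRL and at 55.6, 49.9 and 50.2 CPM in siRNA-1. Every siRNA-1 library was below every control, and EIF2D fell by 0.59 on the log2 scale (SE 0.066, adjusted p = 1.1e-05, edgeR). EIF2A rose 1.21-fold, from 74.7 ± 7.56 to 90.3 ± 3.67 CPM (adjusted p = 0.00704).

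The 4 eIF2 kinases respond to different stresses, and 3 of their genes rose, where 31.5% of all genes tested did. EIF2AK1, which encodes the haem-regulated inhibitor HRI, also a sensor of mitochondrial stress, was at 169, 163 and 163 CPM in siCTRL and at 238, 239 and 224 CPM in siRNA-1. No library of one group reached the other, and EIF2AK1 rose 1.42-fold (log2 fold change 0.50, SE 0.053, adjusted p = 6.1e-06, edgeR). EIF2AK4, which encodes GCN2, the sensor of uncharged tRNA, was at 150, 152 and 147 CPM in siCTRL and at 168, 168 and 170 CPM in siRNA-1. The groups were apart by a small step, and EIF2AK4 rose 1.13-fold (adjusted p = 0.0105). EIF2AK2, which encodes the sensor of double-stranded RNA known as PKR, was at 125, 125 and 118 CPM in siCTRL and at 138, 133 and 135 CPM in siRNA-1. EIF2AK2 rose 1.10-fold (log2 fold change 0.14, adjusted p = 0.0342), and this call was lost on leaving out any library other than siCTRL 2: the adjusted p was 0.0699 without siCTRL 1, 0.131 without siCTRL 3, and 0.111, 0.0591 and 0.0799 without siRNA-1 1, 2 and 3. EIF2AK2 also missed the threshold with the replicate number as a block (adjusted p = 0.0608), with a minimum mean of 100 counts (0.0947) and by DESeq2 (0.0847). EIF2AK3, which encodes PERK, the kinase of the endoplasmic reticulum, was at 29.3, 31.8 and 25.3 CPM in siCTRL and at 34.1, 31.8 and 28.1 CPM in siRNA-1. Its groups overlapped and its adjusted p was 0.306 (log2 fold change 0.12), and it passed without siCTRL 2 (log2 fold change 0.18, adjusted p = 0.0479). Whether the 4 kinase genes differed from one another in their change was not tested.

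The regulators of this step were taken as a list of 15 partner genes, all of which were tested: 8 rose and 4 fell, where 31.5% and 31% of all genes did. PPP1R15B, the constitutive subunit that directs protein phosphatase to eIF2, was at 109, 112 and 106 CPM in siCTRL and at 174, 177 and 166 CPM in siRNA-1 (1.58-fold higher, adjusted p = 8.9e-07, edgeR). PPP1R15A, its stress-induced counterpart, was at 222, 143 and 224 CPM in siCTRL and at 202, 213 and 197 CPM in siRNA-1. The low control value was that of siCTRL 2, and PPP1R15A did not pass (adjusted p = 0.723). IMPACT, an inhibitor of GCN2 activation, was at 29.8 ± 1.71 CPM in siCTRL and 7.80 ± 0.595 CPM in siRNA-1, a fall of 3.82-fold (adjusted p = 2.2e-08). GCN1, the coactivator of GCN2, had 236 CPM in siCTRL and 230 CPM in siRNA-1 (adjusted p = 0.564). Regulators of PKR moved in both directions. Among genes of its inhibitors, DNAJC3 fell (log2 fold change -0.54) and TARBP2 rose (0.48). PRKRA, which encodes an activator of PKR, rose (0.26), as did ADAR (0.15), whose RNA editing limits PKR activation.

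The 5 subunits of eIF2B, the exchange factor that reloads eIF2 with GTP, did not move as a unit: 2 rose, 2 fell and 1 did not pass. Of all genes tested 31.5% rose and 31% fell. EIF2B5, the catalytic epsilon subunit gene, was at 84.4, 91.0 and 85.1 CPM in siCTRL and at 153, 151 and 150 CPM in siRNA-1. The 3 siRNA-1 values lay close together and far above the controls, and EIF2B5 rose 1.74-fold (log2 fold change 0.80, SE 0.055, adjusted p = 2.1e-07, edgeR). EIF2B4, the delta subunit gene, was at 40.2, 38.3 and 40.1 CPM in siCTRL and at 48.8, 47.8 and 46.0 CPM in siRNA-1, a rise of 0.27 on the log2 scale without overlap (adjusted p = 0.00362). EIF2B2, the beta subunit gene, was at 66.0, 56.3 and 66.7 CPM in siCTRL and at 54.0, 48.8 and 50.4 CPM in siRNA-1. The groups came within a few CPM of each other at siCTRL 2, and EIF2B2 fell 1.23-fold (adjusted p = 0.00470). In the annotation 23.6% of the exonic bases of EIF2B2 are shared with genes of the opposite strand, and whether the counting used strand is unknown. EIF2B3, the gamma subunit gene, was at 50.4, 47.8 and 49.1 CPM in siCTRL and at 43.5, 45.4 and 40.2 CPM in siRNA-1 (1.14-fold lower, adjusted p = 0.0299). Its call was lost without siCTRL 1 (adjusted p = 0.0734), siCTRL 3 (0.0579), siRNA-1 1 (0.0773) or siRNA-1 3 (0.149), and with library size alone (0.0635), no filter (0.0527) or DESeq2 (0.0595). EIF2B1, the alpha subunit gene, had 60.7 ± 6.00 and 62.1 ± 0.708 CPM and did not pass (adjusted p = 0.724, edgeR). Per kilobase of exon EIF2B5 stood at 0.969, 1.22 and 0.967 times EIF2B2 in the controls and at 2.15, 2.34 and 2.26 times in siRNA-1 libraries. On GRCh38 EIF2B5 (ENSG00000145191) spans 184135038 to 184146112 of chromosome 3, plus strand, and EIF4G1, which also rose, spans 184314495 to 184335358 of the same strand. Of the other tested initiation factor genes on chromosome 3, EIF2A rose, EIF4E3 and EIF5A2 fell, and EIF4A2 and EIF1B did not pass. A part of position in these changes was not tested.

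**Figure D2:**
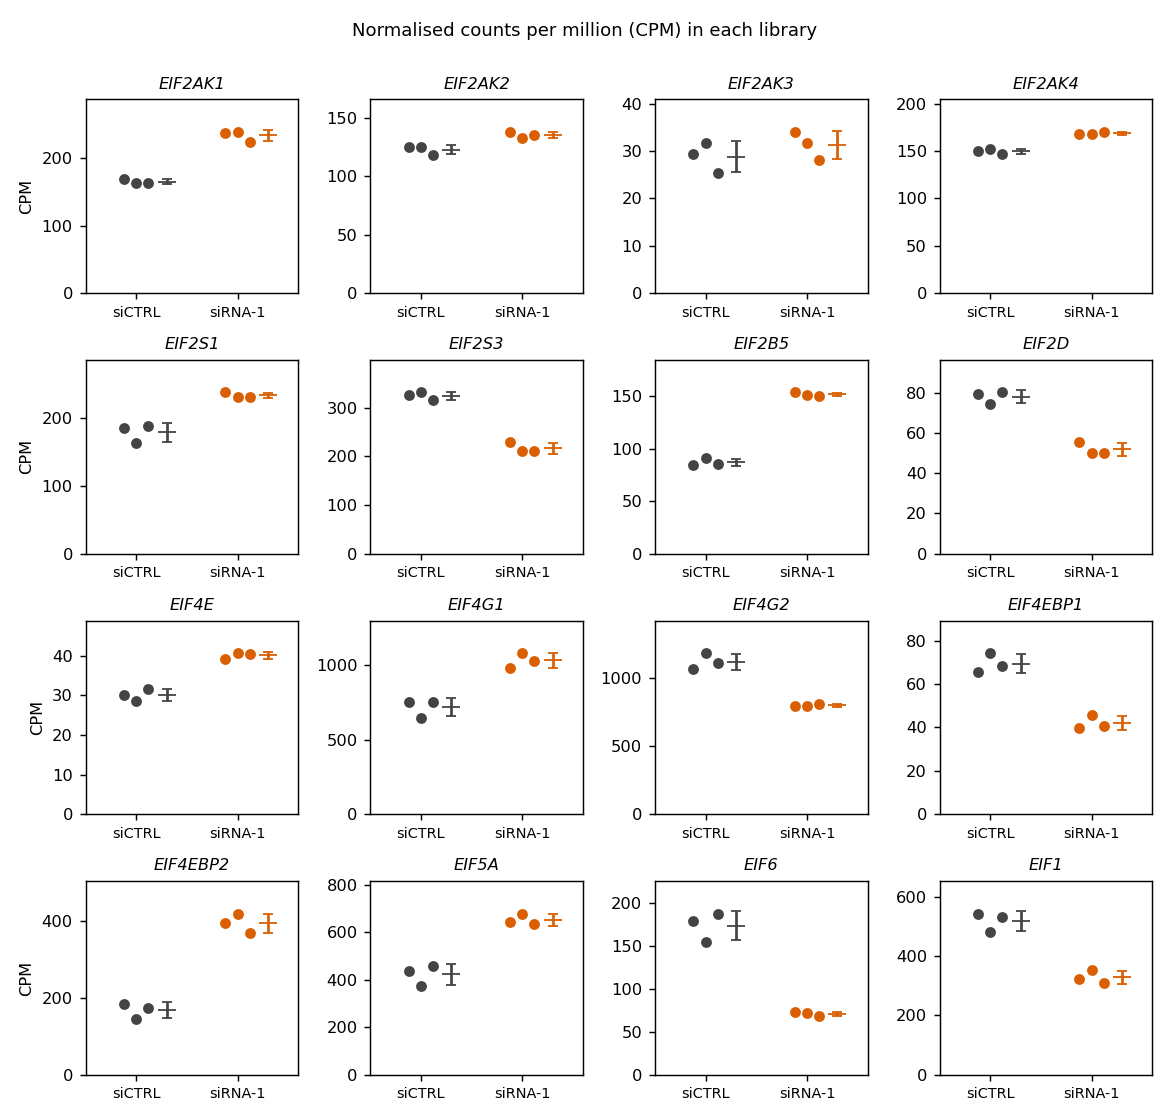
CPM (vertical axes, each from 0) of 16 initiation factor genes in the 3 siCTRL and 3 siRNA-1 libraries, with points for libraries in the order 1 to 3 and, beside them, the mean and SD. The 2 groups overlap in the panel of EIF2AK3 and in no other panel.

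Transcripts of eIF3, the largest initiation factor, changed little. Of its 14 genes 4 rose, 0 fell and 10 did not pass (28.6% changed, beside 62.5% of all genes tested). Their median log2 fold change was 0.05 and the median absolute value was 0.12. The share that rose, 28.6%, was near the 31.5% of all genes, and the share that fell was 0% beside 31%. EIF3C and EIF3CL are near-identical copies whose counts cannot be taken as levels. Without these copies 4 of 12 genes rose (33.3%), 0 fell and 8 did not pass, with a median absolute value of 0.061. No test of these shares against the other genes was made. EIF3J, which encodes a loosely attached subunit at the decoding centre of the ribosome, was at 66.0, 70.5 and 72.4 CPM in siCTRL and at 102, 103 and 102 CPM in siRNA-1. The siRNA-1 libraries were nearly equal to one another and well above the controls, and EIF3J rose 1.48-fold (log2 fold change 0.56, SE 0.058, adjusted p = 5.4e-06, edgeR). EIF3B, a core scaffold subunit gene, was at 332, 303 and 340 CPM in siCTRL and at 415, 427 and 407 CPM in siRNA-1 (1.28-fold higher, adjusted p = 0.000171). EIF3I, whose protein binds that of EIF3B, rose 1.22-fold from 276 ± 6.76 to 336 ± 8.72 CPM. EIF3D, which encodes a subunit that can itself bind the cap, rose 1.18-fold from 188 ± 9.41 to 223 ± 8.54 CPM. A further 7 genes, most of them of the octamer core, did not pass the test: EIF3A (log2 fold change 0.04, SE 0.055), EIF3E (0.06, SE 0.053), EIF3F (0.05, SE 0.053), EIF3G (0.02, SE 0.059), EIF3H (-0.06, SE 0.049), EIF3L (0.01, SE 0.064) and EIF3M (0.06, SE 0.052). EIF3K had a log2 fold change of 0.17 (adjusted p = 0.0558), and passed without siCTRL 3 (log2 fold change 0.24, adjusted p = 0.0131), with library size alone (adjusted p = 0.0163), with no filter (0.0391) and by limma-voom (0.0494).

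Levels of the eIF3 genes were set beside one another per kilobase of annotated exon. This divides by all annotated exons of a gene, whichever transcript is present. The order therefore leans on annotated lengths, such as 1725 bases for EIF3I and 9431 for EIF3F. In CPM without length EIF3A (630 in siCTRL) lay above EIF3I (276). Per kilobase EIF3I was highest in the controls, at 160 ± 3.92 CPM, followed by EIF3A at 88.8 ± 4.62. EIF3L (53.6 ± 3.66), EIF3E (47.5 ± 2.27) and EIF3D (46.2 ± 2.31) came next, and the last pair did not differ by more than their spread. The level of EIF3L is uncertain, since 41.1% of its exonic bases are shared with AL022311.1 of the same strand. EIF3F was at 16.9 ± 0.727. EIF3C and EIF3CL were far below all others, at 2.11 ± 0.185 and 1.37 ± 0.0192 CPM per kilobase, with 1173 and 326 counts over all libraries. They are near-identical copies, so reads that fit both may be absent from their counts, and their values (log2 fold changes -0.19 and -0.30, adjusted p = 0.146 and 0.154, edgeR) cannot be taken as levels of this core subunit. EIF3C passed without siCTRL 2 (log2 fold change -0.25, adjusted p = 0.0409). Summed over its genes eIF3 took 2818 to 2924 CPM in the controls and 3123 to 3168 CPM in siRNA-1 libraries.

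**Figure D3:**
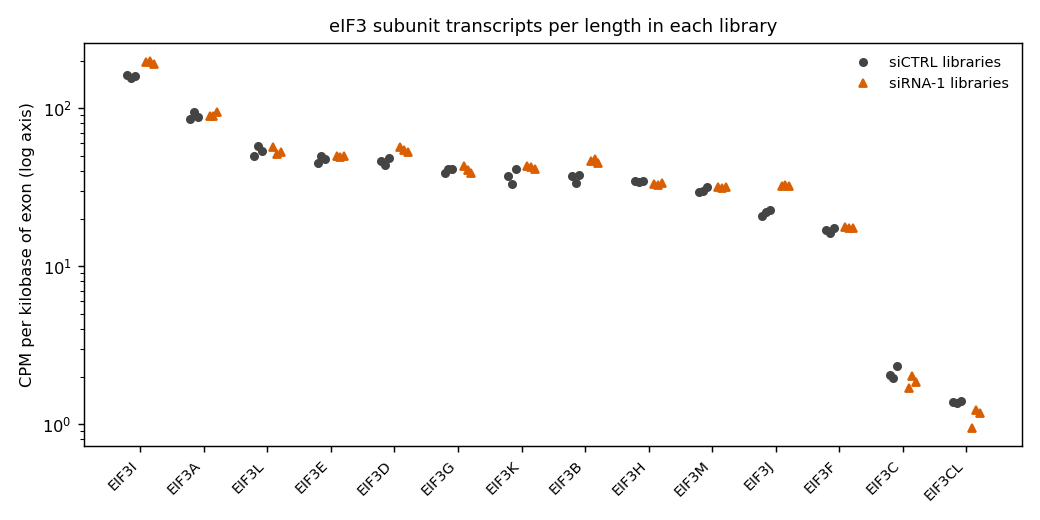
CPM per kilobase of exon (vertical log axis) of the 14 eIF3 genes in each siCTRL library (circles) and siRNA-1 library (triangles), ordered by the control mean. EIF3J and EIF3B stand above their controls, and the near-identical EIF3C and EIF3CL lie far below the other subunits in both groups.

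In the eIF4 group 6 of 14 tested genes rose, 4 fell and 4 did not pass, beside 31.5% higher and 31% lower among all genes tested. The cap-binding protein and scaffold genes EIF4E, EIF4G1 and EIF4G3 rose, and the helicase genes did not pass. EIF4E, the cap-binding protein gene, was at 30.2, 28.7 and 31.7 CPM in siCTRL and at 39.2, 40.7 and 40.4 CPM in siRNA-1. The groups were apart, and EIF4E rose 1.33-fold (log2 fold change 0.41, SE 0.072, adjusted p = 0.000356, edgeR). EIF4G1, the main scaffold gene, was at 752, 647 and 750 CPM in siCTRL and at 983, 1082 and 1030 CPM in siRNA-1, with the lowest value in siCTRL 2. EIF4G1 rose 1.44-fold (log2 fold change 0.53, SE 0.066, adjusted p = 2.7e-05). EIF4G3, a second scaffold, rose 1.26-fold from 142 ± 12.6 to 179 ± 9.38 CPM. EIF4G2, which encodes a relative of the scaffold that lacks the eIF4E binding site, was at 1063, 1181 and 1104 CPM in siCTRL and at 794, 790 and 806 CPM in siRNA-1. It fell 1.40-fold with no overlap (log2 fold change -0.49, SE 0.053, adjusted p = 8.1e-06). Per kilobase of exon, EIF4G1 stood at 0.742, 0.574 and 0.713 times EIF4G2 in the controls and at 1.30, 1.44 and 1.34 times in siRNA-1 libraries, so the order of these genes was opposite in the groups.

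Among the helicase genes, EIF4A2 had 458 ± 12.9 CPM in siCTRL and 434 ± 6.59 CPM in siRNA-1 (log2 fold change -0.08, adjusted p = 0.187, edgeR), and passed without siCTRL 2 (log2 fold change -0.11, adjusted p = 0.0146) and with a minimum mean of 100 counts (adjusted p = 0.0479). EIF4A1, usually an abundant transcript, had only 12.9 ± 2.40 and 14.9 ± 1.11 CPM (adjusted p = 0.207). In the annotation 48.6% of its exonic bases are shared with other genes of the same strand, and 13 pseudogenes carry its name, so reads may be missing from this gene and its level is uncertain. EIF4A3, the relative in the exon junction complex, was at 134 ± 2.12 and 135 ± 7.01 CPM (adjusted p = 0.866). Of the helicase cofactors, EIF4H rose 1.21-fold from 495 ± 27.5 to 598 ± 1.27 CPM (adjusted p = 0.000814), and EIF4B had 319 CPM in siCTRL and 301 CPM in siRNA-1 (adjusted p = 0.211).

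The genes of the 4E-binding proteins moved in opposite directions. EIF4EBP2 was at 184, 144 and 174 CPM in siCTRL and at 393, 419 and 368 CPM in siRNA-1. Each siRNA-1 library was well above every control, and EIF4EBP2 rose 2.35-fold, the largest rise among the initiation factor genes (log2 fold change 1.23, SE 0.085, adjusted p = 2.2e-07, edgeR). It ranked as rise 134 of the 12440 genes tested. EIF4EBP1 was at 65.6, 74.4 and 68.4 CPM in siCTRL and at 39.7, 45.8 and 40.9 CPM in siRNA-1. Here all siRNA-1 libraries lay below the controls, and EIF4EBP1 fell 1.65-fold (log2 fold change -0.72, SE 0.075, adjusted p = 6.1e-06). Per kilobase of exon, EIF4EBP2 stood at 0.416, 0.286 and 0.377 times EIF4EBP1 in siCTRL and at 1.46, 1.35 and 1.33 times in siRNA-1. The ratio was 3.84 times higher in siRNA-1 cells (exact permutation test on the log ratio, two-sided, p = 0.1, the smallest that 3 against 3 allow). Here too the separation was fixed by the opposite moves of the genes and is no separate evidence. The sum of both genes per kilobase was 87.8 ± 1.31 in siCTRL and 93.5 ± 6.06 in siRNA-1, and the groups overlapped (exact permutation p = 0.2). This sum was 41.0 ± 2.47 times the level of EIF4E in siCTRL and 32.8 ± 1.86 times in siRNA-1. Both the sum and this factor lean on annotated exon lengths (1073 bases for EIF4EBP1, 7257 for EIF4EBP2 and 14067 for EIF4E). In CPM without length, EIF4EBP2 rose by more than EIF4EBP1 fell, and their sum was higher in siRNA-1, also relative to EIF4E. On GRCh38 EIF4EBP2 (ENSG00000148730) spans 70404379 to 70428618 of chromosome 10 and EIF4EBP1 (ENSG00000187840) spans 38030341 to 38060365 of chromosome 8, both on the plus strand.

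Other cap-binding genes were lower. EIF4E3 was at 4.65, 2.95 and 3.87 CPM in siCTRL and at 1.61, 0.994 and 0.818 CPM in siRNA-1, and its group means were the lowest of the 53 tested initiation factor genes. It fell 3.37-fold (log2 fold change -1.75, SE 0.29, adjusted p = 0.000213, edgeR), with 38 to 68 counts per control library and 12 to 23 per siRNA-1 library behind these values. EIF4E2, which encodes a cap-binding protein that represses translation, fell 1.24-fold from 88.3 ± 6.21 to 71.2 ± 5.38 CPM (adjusted p = 0.00287), and 24.2% of its exonic bases are shared with genes of the opposite strand. EIF4ENIF1, whose protein carries eIF4E into the nucleus and to sites of mRNA decay, rose 1.23-fold from 23.3 ± 0.866 to 28.5 ± 1.30 CPM (adjusted p = 0.00669).

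Promoters were searched because MYC and related factors are known to bind the E-box CACGTG, a palindrome that reads the same on both strands. RefSeq promoters on GRCh38.p14, from 250 bases before to 50 after a start site, were matched to 47 of the 56 genes by symbol. At least 1 E-box lay in the promoters of 12 of these 47 genes (25.5%), against 12.5% of the 10135 tested genes with a promoter and 8.77% of all 27305 genes in the table. The 12 include 1 untested gene, and the difference between these shares was not tested. Of the 12 genes 4 had risen (EIF2AK2, EIF4E, EIF4G1 and EIF4H), 2 had fallen, 5 had not passed and 1 was untested, so the match did not go with 1 direction. The stress response motif TGATGNAA, searched on both strands, matched 1 of the 47 genes (EIF4E3) and 2.74% of tested genes, and the motif TGACGTCA matched 0 of the 47 and 3.80% of tested genes. The E-boxes of EIF4E, EIF4G1 and EIF5A2 are shown, in capitals within their flanks and on the strand of the gene, since these 3 promoters hold 2 each although EIF4E and EIF4G1 rose and EIF5A2 fell.
EIF4E, chromosome 4, E-box at 98929353 to 98929358, minus strand: tacccatcggcCACGTGaccagtcctttt
EIF4E, chromosome 4, E-box at 98929200 to 98929205, minus strand: gacatatccgtCACGTGgccagaagctgg
EIF4G1, chromosome 3, E-box at 184314462 to 184314467, plus strand: gctgtggctgtCACGTGacggggcggggg
EIF4G1, chromosome 3, E-box at 184314539 to 184314544, plus strand: cctgcgccggtCACGTGggggcgccggct
EIF5A2, chromosome 3, E-box at 170908819 to 170908824, minus strand: ctaatccgcagCACGTGgggttgccaggg
EIF5A2, chromosome 3, E-box at 170908794 to 170908799, minus strand: agggcgctcttCACGTGactgggcggagc
A match describes these letters only and is not evidence of binding in these cells.

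Among the other factors 3 of 10 tested genes rose, 4 fell and 3 did not pass, beside 31.5% higher and 31% lower among all genes tested. EIF6, which encodes a factor that keeps the large ribosomal subunit from joining too early and also acts in its assembly, was at 179, 154 and 187 CPM in siCTRL and at 72.8, 71.4 and 68.1 CPM in siRNA-1. All siRNA-1 libraries were below the lowest control by more than the whole range of the controls, and EIF6 fell 2.45-fold (log2 fold change -1.29, SE 0.075, adjusted p = 5.2e-08, edgeR). This was the smallest adjusted p among the initiation factor genes. On GRCh38 EIF6 (ENSG00000242372) spans 35278911 to 35284985 of chromosome 20, minus strand, and 17.4% of its exonic bases are shared with AL121753.1 of the same strand. Per kilobase of exon it went from 106 ± 10.7 CPM, rank 6 of the 53 genes, to 43.4 ± 1.48 CPM, rank 17.

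EIF1, a small factor that keeps the scanning ribosome from starting at a wrong codon, was at 543, 481 and 531 CPM in siCTRL and at 323, 352 and 308 CPM in siRNA-1. The groups were far apart, and EIF1 fell 1.58-fold (log2 fold change -0.66, SE 0.065, adjusted p = 3.9e-06, edgeR). Its paralogue EIF1B had 30.5 ± 1.59 and 27.0 ± 0.621 CPM and missed the threshold (adjusted p = 0.0662), and passed without siCTRL 1 (adjusted p = 0.0499) and with a minimum mean of 100 counts (0.0292). EIF5, which triggers GTP hydrolysis by eIF2 at the start codon, fell 1.16-fold from 230 ± 2.39 to 198 ± 3.76 CPM (adjusted p = 0.00238). EIF5B, the GTPase that joins the ribosomal subunits, rose 1.19-fold from 206 ± 23.3 to 245 ± 9.09 CPM (log2 fold change 0.25, adjusted p = 0.0120). That call was lost without siCTRL 1 (log2 fold change 0.16, adjusted p = 0.0646) and without siRNA-1 3 (0.23, adjusted p = 0.0524). EIF1AX, which works beside EIF1 in scanning, had a log2 fold change of -0.11 (adjusted p = 0.149), and passed without siCTRL 1 (-0.18, adjusted p = 0.047) or siCTRL 2 (-0.13, adjusted p = 0.0268). EIF1AD, a nuclear relative of EIF1AX, had 57.7 ± 6.13 and 55.7 ± 2.12 CPM (adjusted p = 0.589), and passed without siCTRL 2 (log2 fold change -0.149, adjusted p = 0.0262).

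The eIF5A paralogues also moved apart. EIF5A encodes a hypusine-bearing factor that helps ribosomes through difficult peptide bonds, and was at 436, 373 and 457 CPM in siCTRL and at 643, 678 and 633 CPM in siRNA-1. It rose 1.54-fold with no overlap (log2 fold change 0.62, SE 0.071, adjusted p = 1.2e-05, edgeR). EIF5AL1, an intronless near-copy of EIF5A on chromosome 10, was at 52.9, 51.6 and 54.9 CPM in siCTRL and at 77.0, 76.8 and 76.8 CPM in siRNA-1. This 1.45-fold rise (adjusted p = 8.1e-06) is uncertain in its origin, since reads of EIF5A and EIF5AL1 are hard to tell apart. EIF5A2 was at 35.7, 29.3 and 36.1 CPM in siCTRL and at 18.7, 20.1 and 20.4 CPM in siRNA-1. EIF5A2 fell 1.71-fold (log2 fold change -0.77, SE 0.097, adjusted p = 2.6e-05), and per kilobase of exon EIF5A stood 24.3, 25.3 and 25.2 times above it in the controls and 68.2, 67.1 and 61.5 times in siRNA-1 libraries. DOHH, which encodes the second enzyme of hypusine synthesis, rose 1.46-fold from 16.3 ± 1.61 to 23.9 ± 1.17 CPM (adjusted p = 0.000366). DHPS, the first enzyme, had 0 to 3 counts per library, too few to be tested, and such low counts need not mean an absent transcript.

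The 3' untranslated regions were searched for GCTCACT, a 7-base sequence that an earlier analysis of these data had picked from genes that fell, so that its presence in falls is no separate evidence. GENCODE 29 gave a region of at least 50 bases for 54 of the 56 genes and for 51 of those tested. The sequence was present in 7 of these 51 (13.7%), against 16.5% of 12110 tested genes. It was present in 3 of 13 initiation factor genes that fell (EIF6, EIF1 and EIF5A2) and in 2 of 19 that rose (EIF4EBP2 and EIF2AK2), beside 26.8% of all falls and 9.11% of all rises. The other carriers, EIF1AD and EIF3M, did not pass the test. Carriers had longer regions, with a median of 3863 bases against 849 for all 51. One match each of EIF6, EIF1 and EIF4EBP2 is shown, with the 7 bases in capitals, as examples from genes that fell and rose. The other 7 of the 10 matches are not reported here, and the flanks shown are not typical of all 10. Coordinates are those of the 7 bases on GRCh38.
EIF6, chromosome 20, 35279086 to 35279092, minus strand: ggtggcagagaGCTCACTgggactgaggg
EIF1, chromosome 17, 41690836 to 41690842, plus strand: gtgcttgtgGCTCACTgaagcttaagtga
EIF4EBP2, chromosome 10, 70426810 to 70426816, plus strand: ttgggtttccaGCTCACTgggactctcag

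Beyond the factors themselves, 69 partner genes in 7 lists were examined, of which 65 were tested, 30 rose (46.2%) and 19 fell (29.2%), beside 31.5% and 31% of all genes tested. These background shares hold for each list that follows. EEF1G, an elongation factor gene that cells in general use, was listed at 0 in every library, so a 0 in this table need not mean an absent transcript. In the list of start site selection and reinitiation 5 of 7 tested genes rose and 1 fell. BZW2, which encodes a mimic of eIF5, was at 58.4, 56.8 and 60.2 CPM in siCTRL and at 17.6, 14.9 and 14.4 CPM in siRNA-1, a fall of 3.74-fold (adjusted p = 7.3e-09, edgeR). Its paralogue BZW1 rose (log2 fold change 0.34), and ABCE1, which splits ribosomes after termination, rose 1.51-fold from 169 ± 8.56 to 256 ± 11.6 CPM. Among cap and poly(A) tail binding genes 7 of 14 rose and 3 fell. PABPC1, the main poly(A) binding protein gene, was at 1080, 1088 and 1069 CPM in siCTRL and at 753, 804 and 759 CPM in siRNA-1 (1.40-fold lower, adjusted p = 4.6e-06), while PAIP2, which encodes an inhibitor of that protein, rose 1.59-fold from 92.1 ± 5.53 to 147 ± 1.98 CPM (adjusted p = 1.5e-06).

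In the list of mTOR and MNK inputs 4 of 15 genes rose (MTOR, AKT1S1, TSC1 and MKNK2). Another 7 fell (DDIT4, RPS6KB2, SESN2, RPS6KB1, RICTOR, RPTOR and RPS6). MTOR rose 1.27-fold from 101 ± 2.41 to 129 ± 2.27 CPM (adjusted p = 0.000129, edgeR). DDIT4, which encodes a stress-induced brake on mTOR, was at 281, 387 and 284 CPM in siCTRL and at 94.7, 99.6 and 93.8 CPM in siRNA-1 (3.31-fold lower, adjusted p = 9.8e-08), with the highest value in siCTRL 2. RPS6KB2, a kinase gene downstream of mTOR, fell 1.84-fold from 57.6 ± 1.35 to 31.3 ± 1.87 CPM. Elongation and termination factors split evenly, with 4 of 11 tested genes higher and 4 lower. EEF2 had 1129 ± 77.2 and 1205 ± 27.5 CPM and did not pass (adjusted p = 0.172), and EEF2K, the kinase that inhibits it, fell 2.24-fold from 31.6 ± 2.68 to 14.1 ± 0.272 CPM. EEF1A2 rose 2.61-fold from 10.9 ± 2.51 to 28.4 ± 0.508 CPM. Its far more abundant paralogue EEF1A1 fell 1.51-fold from 5557 ± 461 to 3689 ± 146 CPM (adjusted p = 7.9e-06, edgeR). Of the mitochondrial initiation factors MTIF2 rose 1.13-fold (adjusted p = 0.0382) and MTIF3 did not pass (adjusted p = 0.353). How these lists and the initiation factor genes differ was not tested.

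**Figure D4:**
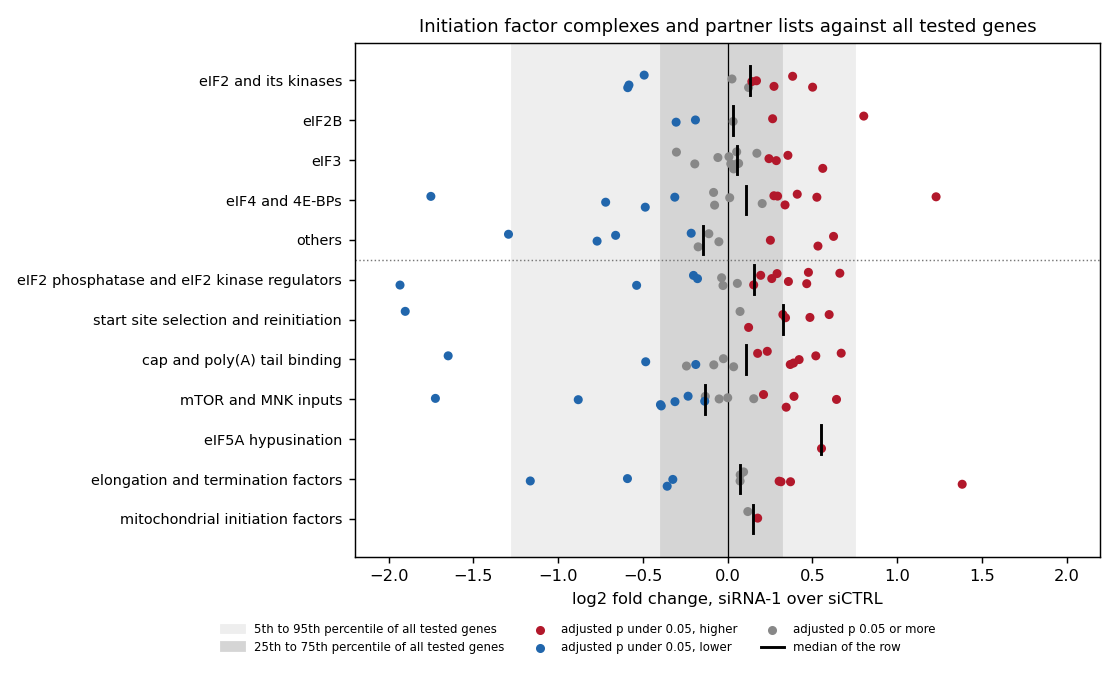
Log2 fold change of siRNA-1 over siCTRL (horizontal axis) for each tested gene of the 5 groups of initiation factors (above the dotted line) and the 7 partner lists (below), with black bars for row medians and grey bands for percentiles of all 12440 tested genes. The eIF3 genes lie between -0.30 and 0.56, and the eIF4 genes spread from -1.75 to 1.23.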

How the data were processed

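The deposited table holds raw read counts per Ensembl gene for 6 libraries, made by the authors with HTSeq per the labels. The submitters' processing notes also name Trimmomatic, STAR, kallisto and the build hg38, but neither the annotation release nor the strand setting or filters. Libraries were made from total RNA with a NEBNext Ultra RNA kit, per the labels' protocols.

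Columns were assigned by the names in the labels, and 0 columns of other samples were present. Symbols came from Ensembl identifiers, and all 56 initiation factor genes had a position in GENCODE 29 (GRCh38), which also gave exon lengths (union of all annotated exons), overlaps and 3' untranslated regions (1 principal transcript a gene). Promoter sequences came from RefSeq. In R 4.3.3, edgeR 4.0.16 kept genes by filterByExpr (minimum count 10, minimum total 15), scaled libraries by TMM and tested siRNA-1 against siCTRL in a model with no covariate (quasi-likelihood F test). P-values were adjusted over 12440 genes by Benjamini-Hochberg, with a threshold of 0.05. The SE was derived from the fold change and F. The common biological coefficient of variation was 0.0656. Same-group libraries differed by more than sampling noise. The chi-square over genes per degree of freedom was 11.3 and 11.4 for siCTRL 2 against the other controls. It was 2.12 to 2.40 for every other pair within a group. The fit was tested on simulated counts.

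All tested initiation factor genes are named. Values in every library are given for the eIF2 kinases, EIF2S1, EIF4E, EIF4EBP1, EIF4G1 and EIF5A, and for the 2 largest rises and falls of each complex. Those of EIF1, EIF4G2 and some partner genes were added after their values were seen. Partner genes are the 2 of each list with the smallest adjusted p, PPP1R15A, PABPC1, MTOR and EEF2, and others chosen after their values were seen. The genes, lists and tests were chosen with earlier results of these data known. DESeq2 1.42.0 and limma 3.58.1 served as alternatives. Some items of the marker lists and sequence matches are not reported here.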

Additional observations from a re-analysis of the deposited data

How the results depend on the processing

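Against a fold change of 1.2 (glmTreat), which asks for more than a difference from 0, 10 initiation factor genes were higher and 9 lower, 4832 of all genes changed, and 16 partner genes were higher and 9 lower. At a threshold of 0.01, 17 initiation factor genes were higher and 12 lower, and 6206 of all genes changed. Of the partner genes 21 were higher and 12 lower at that threshold. Leaving out 1 library at a time gave 18 to 21 initiation factor genes higher and 12 to 17 lower, while 6848 to 8635 of all genes changed. The 17 came without siCTRL 2, where 8635 of all genes changed. The other settings were limma-voom, the Wald test and the size factors of DESeq2, library size alone, no filter, and a minimum mean of 100 counts. They gave 19 to 21 initiation factor genes higher and 12 to 14 lower, with 6707 to 7939 of all genes changed. With the replicate number as a block 19 rose and 13 fell, and 7535 of all genes changed. Same-numbered libraries did not deviate together (correlations of 0.067, -0.078 and -0.057, beside -0.095 to 0.115 for other pairs). With 3 libraries a group this does not show whether same-numbered cultures were made together, which the labels do not say. EIF2AK2 was the 1 initiation factor gene whose call the block changed. No called initiation factor gene changed direction in any of these settings, and 30 of the 33 passed in every one of them that tested them, other than the stricter tests of 1.2-fold and 0.01. EIF4E3, one of the 30, was removed by the minimum mean of 100 counts and so was not tested there. The exceptions were EIF2AK2, EIF2B3 and EIF5B. In addition, 7 genes that did not pass did so under some setting.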
